A study of Drosophila melanogaster with 3 samples.

Results

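Hedgehog signalling genes and the engrailed pair were examined for peaks of Labial fused to GFP in Drosophila melanogaster embryos. The 7 genes, chosen by name, were hh, ptc, smo, cos, ci, en and inv, of 13945 protein-coding genes on the chromosome arms (Ensembl release 115). Each was taken with 5 kb on either side, and a peak was assigned by its summit. All libraries came from 1 transgenic line that stably expresses Labial with GFP at its C terminus, as whole embryos of both sexes aged 0 to 24 h, precipitated with an anti-GFP antibody. There were 3 biological replicates and no second group; embryos that lack the fusion were not analysed here. Whole embryos mix all cell types and stages, so a peak cannot be tied to the cells that make Labial. For the same reason, binding in few cells and weak binding in many cannot be told apart.

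In the Hedgehog pathway, the secreted ligand Hedgehog (hh) binds its receptor Patched (ptc) and so relieves the inhibition of Smoothened (smo). Smoothened then acts through a cytoplasmic complex built on the kinesin-like protein Costal-2 (cos), so that the zinc finger factor Cubitus interruptus (ci) is no longer cut to a repressor and activates target genes, ptc among them. Engrailed (en) and its neighbouring paralogue invected (inv) encode homeodomain factors of posterior compartments, where they promote hh and repress ci. Labial itself is the homeotic factor of the embryonic head and midgut.

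Each replicate had a list of 30000 peaks ranked by the authors' signal, as did the pooled reads, and the irreproducible discovery rate (IDR) list was the 10160 strongest peaks of the pooled list, with signals of 197.9 to 11184.6 and a median of 355.2. Signals describe and rank peaks within a list only. Read depth is unknown, so the values have no error for sequencing depth. The 3 replicates are separate biological samples per the labels, and spreads are over their own lists cut to the 10160 strongest peaks.

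The sequences below are the 201 bases around the summits at hh and in the smo flank that were found in all 3 replicates, and around the strongest summit at ci, which a single replicate held. They are shown because the results at hh, smo and ci rest on the positions of these summits. They were read from the reference genome of NCBI Release 6, the coordinate system of dm6, on the forward strand. Capitals mark letters of the 9 motifs searched, which are spelled out with their results.
hh intron, rank 7644, 3R:23139641-23139841: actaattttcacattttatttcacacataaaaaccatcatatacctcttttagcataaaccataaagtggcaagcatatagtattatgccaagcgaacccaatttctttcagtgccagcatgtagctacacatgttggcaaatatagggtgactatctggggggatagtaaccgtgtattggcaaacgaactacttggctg
hh intron, rank 14536, 3R:23139013-23139213: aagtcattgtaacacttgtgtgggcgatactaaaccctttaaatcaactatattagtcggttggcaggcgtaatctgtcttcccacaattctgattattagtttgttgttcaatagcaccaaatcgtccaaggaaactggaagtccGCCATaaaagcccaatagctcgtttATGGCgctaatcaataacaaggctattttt
hh intron, rank 18024, 3R:23140355-23140555: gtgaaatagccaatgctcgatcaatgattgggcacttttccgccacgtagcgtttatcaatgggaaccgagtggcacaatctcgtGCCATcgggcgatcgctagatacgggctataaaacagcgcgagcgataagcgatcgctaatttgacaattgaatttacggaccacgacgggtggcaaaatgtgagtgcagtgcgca
CG3625 promoter in the smo flank, rank 782, 2L:286523-286723: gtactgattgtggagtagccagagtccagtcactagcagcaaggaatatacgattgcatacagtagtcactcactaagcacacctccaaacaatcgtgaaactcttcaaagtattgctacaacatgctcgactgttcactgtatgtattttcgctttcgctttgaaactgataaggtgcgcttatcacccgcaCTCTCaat
upstream of ci, rank 4167 of replicate 3, 4:60219-60419: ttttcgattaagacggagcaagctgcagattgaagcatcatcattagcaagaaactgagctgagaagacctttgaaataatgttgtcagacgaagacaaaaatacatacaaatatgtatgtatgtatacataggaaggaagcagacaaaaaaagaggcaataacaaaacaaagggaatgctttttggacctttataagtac

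The 7 windows held 13 IDR summits, 9 of them at ptc, 2 at inv and 1 each at hh and smo, and none at cos, ci or en. A summit was thus present at 4 of 7 genes, against 58.8% of all protein-coding genes with the same flanks, which is near that background. Any summit of the pooled list, at whatever rank, was present at 6 of 7, against 74.9% of all genes. Replicates 1, 2 and 3 had 12, 14 and 15 summits over the 7 windows (mean 13.7 ± 1.53, SD, n = 3). The windows held 82.5 IDR summits per Mb, against 75.9 per Mb on the arms. This density rested on ptc, with 3.52 summits per 10 kb, while hh, smo and inv had 0.421 to 0.686 per 10 kb. A promoter summit, at most 500 bp from an annotated start of the gene, was present at ptc alone, 1 of 7 genes (14.3%), against 25.5% of all genes. These shares are descriptions, since the genes were chosen by name, and 7 genes are too few to read a difference from.

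**Figure D1:**
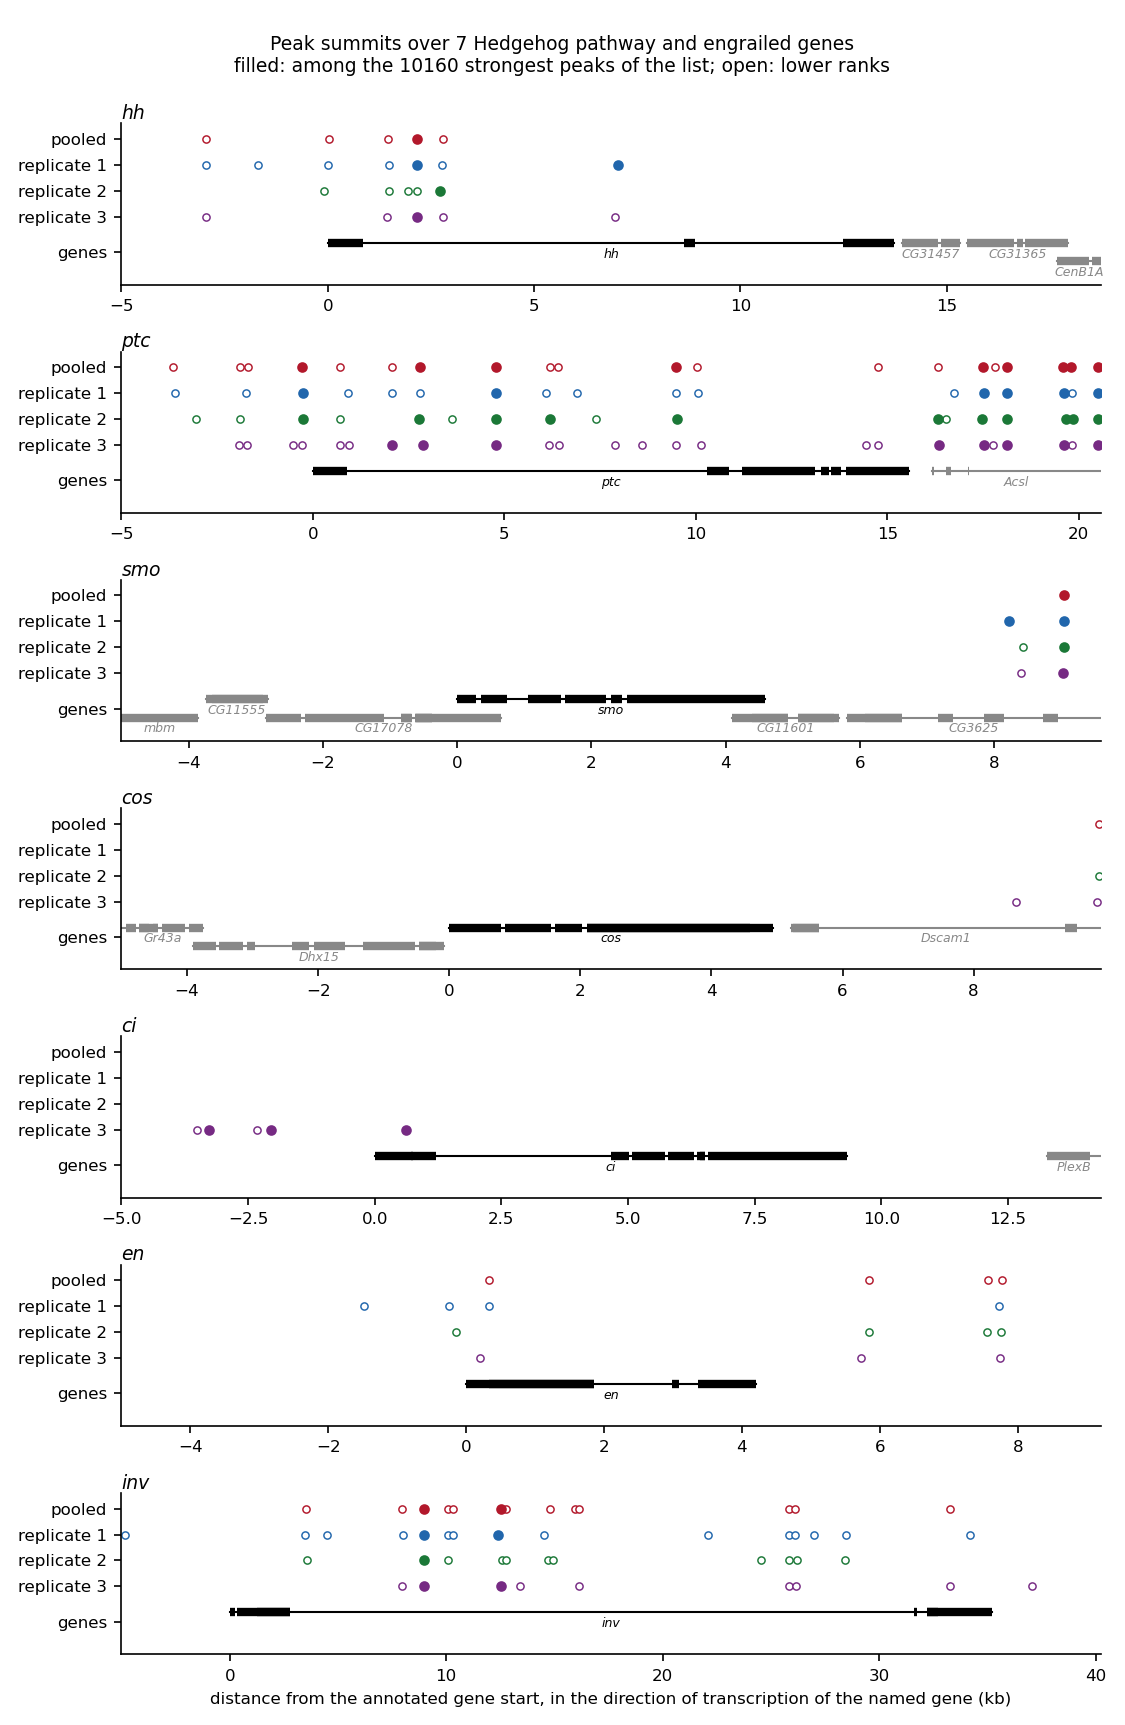
Summits in the 7 gene windows, plotted by distance in kb from the annotated gene start in the direction of transcription, with exons as thick bars and introns as lines. Filled points are among the 10160 strongest peaks of the pooled list or of a replicate, open points have lower ranks; ptc holds 9 filled pooled points, and ci has points in replicate 3 alone.

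The 13 summits lay in introns in 11 cases and in promoters in 2. Their signals ran from 202.4 to 1162.0. By the stricter rule, a replicate peak with at least 50% reciprocal overlap among that replicate's 10160 strongest, 7 were matched in all 3 replicates (53.8%), 5 in 2 replicates and 1 in 1 replicate. Among all IDR peaks 55.8% were matched in all 3, so the share is that of the list as a whole. By summits within 100 bp among the same strongest peaks, 7 were found in all 3 replicates, against 64.7% of all IDR peaks. Of the 13, 5 were among the 5080 strongest IDR peaks, and all 5 of these were matched in all 3 replicates, whereas 2 of the 8 weaker ones were. Over all IDR peaks the shares matched were 69.7% among the 5080 strongest and 41.9% among the rest. The same replicates went into the IDR list, so this matching is not independent evidence of binding.

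**Figure D2:**
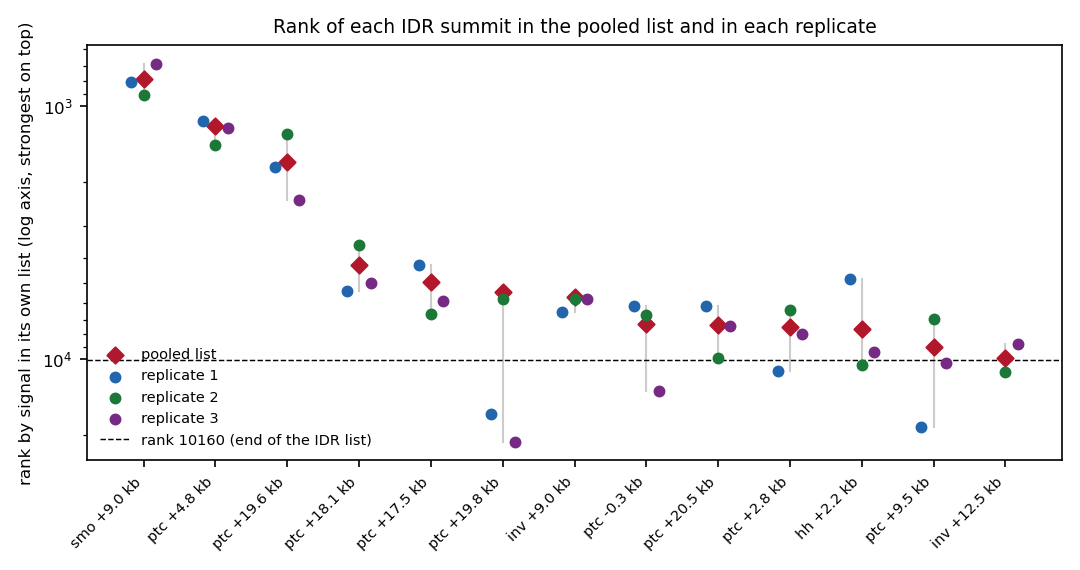
Rank by signal of each of the 13 IDR summits in the pooled list (diamonds) and of the nearest summit within 100 bp in replicates 1 to 3 (circles), on a log axis with the strongest on top; names give the gene and the distance from its start. The strongest, in the smo flank, ranked 687 to 906 in the replicates, while several weak ptc summits fell below rank 10160 (dashed line) in at least 1 replicate, and the inv summit 12537 bp from its start had no point in replicate 1.

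The ligand gene hh (FBgn0004644, 3R:23128169-23141906, reverse strand, dm6) had 2, 1 and 1 summits in replicates 1, 2 and 3, and 1 in the IDR list. That summit lay in an hh intron, 2165 bp downstream of the start, in the peak 3R:23139529-23139952 with a signal of 254.2 and rank 7644. It ranked 4838, 10619 and 9375 in replicates 1, 2 and 3, so that it missed the 10160 strongest of replicate 2 by a narrow margin. Another 4 summits in the hh window stood below the IDR list, and 2 of them, at ranks 14536 and 18024, had a summit within 100 bp in all 3 replicates. The single strongest-list summit of replicate 2 was the counterpart of the rank 14536 one, at rank 9968. Together with the IDR summit these form a row of 3 intronic summits 1451, 2165 and 2793 bp downstream of the start. A further intronic summit 7025 bp downstream of the start ranked 9061 in replicate 1, had a neighbour of rank 11377 in replicate 3 within 100 bp, and had no counterpart in the pooled list. At the hh start itself the pooled list had only a summit of rank 25577, which replicate 1 alone held within 100 bp, at rank 27597. Replicate 2 had a summit 94 bp from the hh start, at rank 21317. It lay within 100 bp of that of replicate 1 but not of the pooled one.

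The receptor gene ptc (FBgn0003892, 2R:8649649-8665223, forward strand) held the most summits of the 7 genes, with 6, 11 and 8 in replicates 1, 2 and 3 (mean 8.33 ± 2.52, SD, n = 3) and 9 in the IDR list. Of all protein-coding genes, 1.66% had 9 or more. Among the 518 genes whose length was within 20% of that of ptc, the median was 2 and 5.6% had as many. Of the 9 summits, 1 lay upstream of the gene, 3 in an intron of ptc and 5 in the downstream flank, where they fell in introns of Acsl, a gene for a long-chain acyl-CoA synthetase that begins 589 bp beyond ptc. The count therefore joins 2 gene bodies: with 1 kb flanks ptc had 4 summits.

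The strongest ptc summit lay in the intron, 4781 bp from the start, in the peak 2R:8654275-8654588 with a signal of 909.5 at rank 1209. Its ranks were 1146, 1437 and 1226 in replicates 1, 2 and 3, whose summits lay within 1 bp of the pooled one. The other intronic IDR summits, 2791 and 9479 bp from the start, were weaker, with ranks 7523 and 9001. The first ranked 11141, 6410 and 7963 in the replicates and the second 18573, 6975 and 10348, so neither stood among the strongest peaks of all 3. The promoter summit lay 280 bp upstream of the single annotated ptc start, in the peak 2R:8649157-8649580 with a signal of 264.6 and rank 7281. It ranked 6205 and 6714 in replicates 1 and 2 and 13369 in replicate 3, which left it outside the strongest peaks of that replicate. Among the peaks matched in both remaining replicates, the ptc promoter was lost without replicate 1 and without replicate 2.

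In the downstream flank, the summit 19598 bp from the ptc start (2R:8669114-8669326) had a signal of 752.6 and rank 1663, with 1743, 1294 and 2351 in the replicates. It stood 200 bp from a second IDR summit of rank 5439, which ranked 16528, 5804 and 21233. The remaining 3 in Acsl, at ranks 4269, 4954 and 7324, were matched in all 3 replicates. The 5 Acsl summits in the window lay 574 to 1606 bp from the nearest Acsl start. Acsl as a whole had 6 IDR summits, and the one outside the ptc window met the promoter rule. In the window, a pooled summit 168 bp from an Acsl start ranked 10772, below the IDR list, with ranks 7802 and 7994 in replicates 2 and 3. Just outside the window, 5280 bp upstream of ptc, stood an intergenic IDR summit of rank 1252 and signal 886.1, about as strong as the best inside it. The ptc window also had 11 summits below the IDR list, the strongest of them 2072 bp into the gene at rank 10517. Without replicate 2 the count of IDR summits at ptc, by peaks matched in both remaining replicates, was 5, and without replicates 1 and 3 it was 6 and 7.

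The gene for the transducer Smoothened (smo, FBgn0003444, 2L:277582-282167, forward strand) had no pooled-list summit in its body or at its promoter. Its window held the strongest of the 13 peaks, 2L:286504-286765 with a signal of 1162.0 and rank 782, but the summit lay 9041 bp beyond the smo start and 92 bp from a start of CG3625, a gene on the reverse strand. It also stood over the antisense RNA gene asRNA:CR46263, 240 bp from its start. The ranks were 804, 906 and 687 in replicates 1, 2 and 3. Replicate 1 held a second summit in this promoter region, 69 bp from another CG3625 start, at rank 2344, and replicates 2 and 3 had one 279 and 249 bp from a CG3625 start, at ranks 11291 and 19445. The pooled list had none within 100 bp of these. With 1 kb flanks smo had no IDR summit.

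The gene for the scaffold Costal-2 (cos, FBgn0000352, 2R:7382176-7387115, reverse strand) had no summit among the strongest peaks of any replicate and none in the IDR list. Its start site is 72 bp from that of Dhx15, a gene for a DEAH-box helicase read in the opposite direction, and this shared promoter region held no summit in the pooled list. The window's single pooled summit, of rank 21240, lay in an intron of the neighbouring gene Dscam1, 9910 bp from the cos start. The nearest IDR summits stood 9.7 kb away in Dscam1 and 42.4 kb away on the other side, a stretch of 57.0 kb. Of the 10154 gaps between neighbouring IDR summits 3.44% were as long or longer, and these hold 30.6% of the sequence between summits.

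The gene for the effector Ci (ci, FBgn0004859, 4:47710-57041, reverse strand) had summits in 1 replicate only. Replicate 3 had 3 summits among its strongest peaks there, and replicates 1 and 2 had none, even in their whole lists of 30000. These were at ranks 4167, 5514 and 6755, the first 2 lying 3278 and 2044 bp upstream of ci over the antisense RNA gene asRNA:CR43957, and the last at the promoter, 86 bp from a ci start. The pooled list, which includes the reads of replicate 3, had no summit in the ci window at any rank. Of the 10160 strongest peaks of replicate 3, 5.86% had no pooled summit within 100 bp, against 8.7% in replicate 1 and 4.81% in replicate 2. Chromosome 4 as a whole had 36 summits in the whole list of replicate 3, 5 of them in the ci window, against 20 in replicate 1 and 12 in replicate 2. In the strongest lists 7 of 15 summits on this chromosome lacked a pooled summit in replicate 3, against 1 of 11 in replicate 1 and 0 of 6 in replicate 2. The 7 include the 3 at ci, so they are not a separate background for it. Of the protein-coding genes on chromosome 4, 11.2% had an IDR summit with 5 kb flanks, so the absence of one at ci is what most genes there show. The nearest IDR summit to ci, 10175 bp upstream, lay 9 bp from a start of RpS3A, a ribosomal protein gene, at rank 1187.

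**Figure D3:**
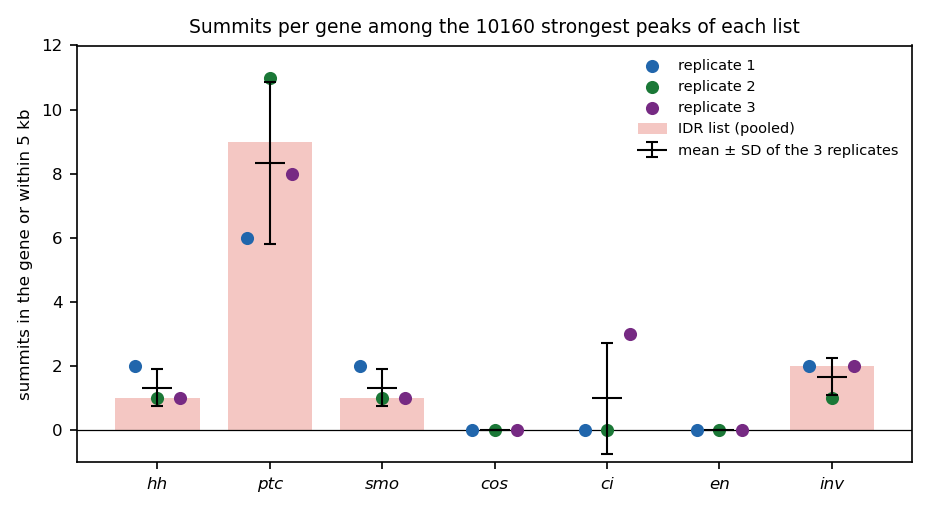
Summits per gene with 5 kb flanks: bars give the count in the IDR list, circles the count among the 10160 strongest peaks of replicates 1, 2 and 3, and black marks their mean with SD. At ptc the replicates ran from 6 to 11, cos and en were at 0 throughout, and ci had 3 in replicate 3 and 0 in the other two.

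The gene en (FBgn0000577, 2R:11524006-11528210, reverse strand) had no summit among the strongest peaks in any replicate. Its window held 4 pooled summits, all below the IDR list, of ranks 14638, 21211, 23893 and 24985. The best of these, 7768 bp from the en start on the side of inv, had a summit within 100 bp in all 3 replicates, at ranks 15787, 18959 and 15198. The weakest lay 9 bp from an en start and was held by replicate 1 alone within 100 bp, at rank 17240. The replicates' own lists each had at least 1 summit within 500 bp of an en start, of ranks 17240 to 27022. Around en no IDR summit was found for 37.0 kb on the side of inv and 25.4 kb on the other side. This stretch of 66.6 kb is matched or exceeded by 2.44% of the gaps between IDR summits, and such gaps hold 25.4% of the sequence between summits.

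The paralogue inv (FBgn0001269, 2R:11474465-11509695, forward strand) had 2, 1 and 2 summits in replicates 1, 2 and 3, and 2 in the IDR list. Both lay in its large intron. The stronger, 8974 bp from the annotated start (2R:11483227-11483650), had a signal of 323.2 and rank 5713, with 6509, 5785 and 5814 in the replicates, and was matched in all 3. The weaker, 12537 bp from the start, had rank 9912 and was close to the end of the IDR list; its ranks were 11297 and 8720 in replicates 2 and 3, and replicate 1 had an overlapping peak of rank 9230 with its summit more than 100 bp away. With 35.2 kb inv is the longest of the 7 genes; the 293 genes within 20% of its length had a median of 3 IDR summits. The inv window held 11 lower-ranked summits. The pair 25840 and 26090 bp from the start, at ranks 11864 and 13599, had a summit within 100 bp in 3 and 2 replicates. Near the second of the pair, replicate 2 had a summit of rank 17030. It lay within 100 bp of those of replicates 1 and 3 but not of the pooled one. Between inv and en, 14.3 kb apart, the pooled list had 4 summits, the best at rank 14638, and no replicate had one among its strongest peaks.

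**Figure D4:**
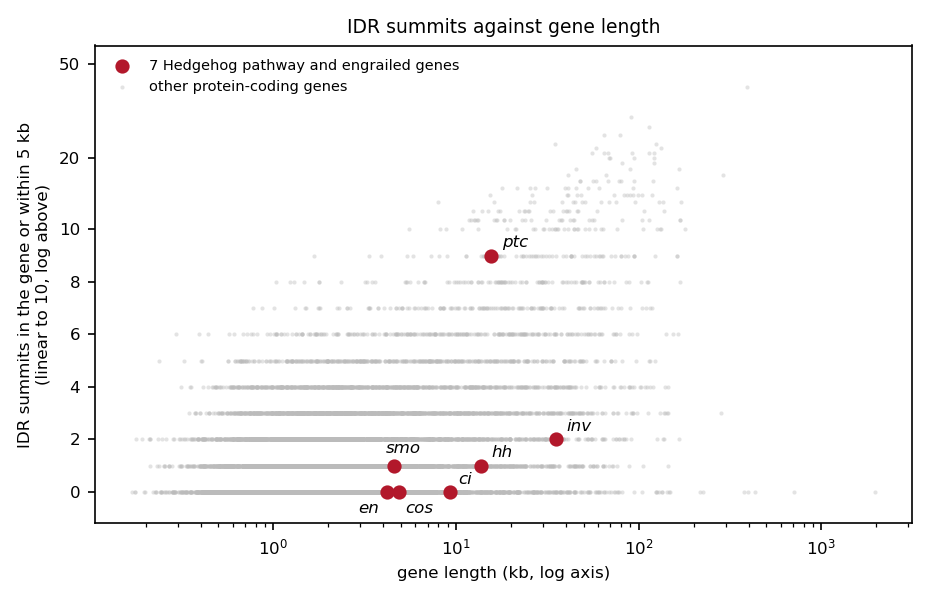
IDR summits in a gene or within 5 kb (linear to 10, log above) against gene length in kb (log axis), for the 7 genes (red) and the other protein-coding genes (grey). The gene ptc, with 9 summits, 5 of them in the neighbouring gene Acsl, stands above most genes of its length. The genes inv and hh lie within the body of the cloud, and cos, ci and en are at 0.

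Below the IDR list the 7 windows held 31 pooled summits, 11 each at ptc and inv, 4 each at hh and en, 1 at cos and none at smo and ci. Of these, 4 had a summit within 100 bp in all 3 replicates' whole lists, 13 in 2, 13 in 1 and 1 in none. Over all 19840 lower-ranked pooled peaks 27.3% had one in all 3 replicates. A base taken anywhere on the arms lay within 100 bp of a summit for 4.5% of bases in each replicate.

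The sequence within 100 bp of each of the 13 IDR summits was searched on both strands for 9 motifs. The composite site of Labial with its cofactor Exd, written TGATTGAT or TGATGGAT, was in none of the 13, against 2.65% and 0.768% of all IDR summits. Below the IDR list, TGATGGAT was 19 bp from the inv summit of rank 18872, which no replicate held within 100 bp. The homeodomain core TAATTA was at 3 summits, against 14.7% of all: at 2 of ptc, 9479 and 17498 bp from the start, and at the stronger of inv. The Ci consensus TGGGTGGTC was in none, against 0.118% of all. GAGAG, bound by the GAGA factor, was at 5 summits, of ptc, inv and the smo flank, against 25.6% of all, and GCCAT, the core of sites of the Polycomb recruiter Pho, at 2 of ptc, its promoter included, against 28.8%. AGATAA, a site for the GATA family of factors, was at 2 ptc summits, against 15.3%; at the strongest ptc summit it was found at distances of 50 and 8 bp. TATCGATA, the DRE element, and CAGGTG were in none, against 1.98% and 6.25%. None of these motifs contains another. The hh IDR summit matched none of the 9. The hh summit of rank 14536 held GCCAT in both orientations, as did the inv summit of rank 27031. Both stand below the IDR list, and the share of lower-ranked summits with GCCAT was not counted. These are matches of letters, and with 13 summits no share can be set apart from that of all IDR summits. The median GC content of the 13 windows was 38.8% (30.8% to 51.2%), against 37.8% for all IDR summits.

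Other genes around the pathway were counted in 6 lists of 66 genes in all, each with 5 kb flanks. An IDR summit was present at 40 (60.6%), against 58.8% of all genes, and at 46, 41 and 41 in replicates 1, 2 and 3. A promoter summit was present at 25 (37.9%), against 25.5% of all genes, and at 28, 26 and 27 in the replicates. The listed genes had a median length of 8.67 kb, against 2.17 kb for all genes. Longer genes hold more summits, and the part of length in these counts was not tested. The shares of all genes, 58.8% and 25.5%, and this limit hold for each single list below too.

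Of 9 genes for release and transport of the ligand, 6 had a summit and 4 a promoter summit. The glypican gene dlp, whose product carries Hedgehog at the cell surface, had 10 summits, the strongest of them intronic at rank 662. The exostosin genes sotv, ttv and botv, which build heparan sulfate chains, had 2, 8 and 4 summits. The strongest of sotv, at rank 962, was at its own promoter, that of ttv, at rank 1124, was intronic, and that of botv, at rank 1168, was at the promoter of CG15111. The gene disp, needed to release the ligand, had none, and neither had rasp, whose product palmitoylates it, or shf. Of 3 co-receptor and receptor-related genes, boi alone had any, with 2 summits, the stronger at rank 4873, and none was matched in all 3 replicates. The co-receptor gene ihog and Ptr had none.

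Of 20 cytoplasmic transducers, 12 had a summit and 5 a promoter summit. The kinase genes gish and sgg had promoter peaks of rank 53 and 155 with signals of 3816.1 and 2613.1. The windows of Gprk2 and SkpA held peaks of rank 7 and 260, but these summits lay at the promoters of PNPase and Hmt4-20. The gene rdx encodes the adaptor that targets Ci for degradation and is itself a Hedgehog target. Its 64997 bp with the 5 kb flanks held 21 summits, with 12 matched in all 3 replicates. Pka-C1 and CkIalpha, which encode kinases that phosphorylate Ci, had 8 and 4 summits. Among the 8 genes of this list without an IDR summit were fu and Su(fu), whose products act beside Costal-2, and slmb, which encodes the F-box protein of Ci processing.

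Of 5 nuclear partners of Ci and En, 4 had a summit and 3 a promoter summit: the strongest were at the corepressor gene gro (promoter, rank 241) and at nej, which encodes the Ci coactivator CBP (intergenic, rank 298), followed by hth and CtBP. The cofactor gene exd had none. Of 13 target genes, with a median length of 20.6 kb against 2.17 kb for all genes, 9 had a summit and 7 a promoter summit. E2f1 had 12 summits, the strongest at the promoter of InR, and vn had 10, followed by CycE and sr by strength. Of the summits at vn, 3 were matched in all 3 replicates, against 8 at E2f1. The strongest lists of replicates 1, 2 and 3 held 6, 5 and 6 summits at vn, and 10, 11 and 10 at E2f1. The classic Hedgehog targets wg and dpp had 1 and 4 summits, with the wg summit at its promoter, at rank 7314. Of 16 regulators of en and hh, 8 had a summit and 5 a promoter summit. Among them Trl, which encodes the GAGA factor, ph-p, a Polycomb group gene, and phol had peaks of rank 6, 14 and 52, that of phol at the promoter of CG3552, and the window of Pc held a peak of rank 36 at the promoter of CG11309. The other 8 had no IDR summit.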

How the data were processed

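Anti-GFP chromatin immunoprecipitation of 3 biological replicates was analysed from the deposited dm6 narrowPeak lists; fragments were 200 to 800 bp, per the labels. Each replicate's list and a pooled list hold, per the deposited file descriptions, peaks and background as input for IDR, called against a control, and the optimal IDR list derives from these. The signal and the −log10 q-value of each peak are the authors' deposited values. The q-value was at its highest, 4.15, for 7046 IDR peaks, and ranks therefore follow the signal. The dm3 lists were not used, and no aligner, caller or IDR threshold is stated in the labels or headers.

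Peak ends lay within the arms of NCBI Release 6, and genes came from Ensembl release 115. Summits were counted in each gene with 5 kb flanks and given the first class that applied: promoter (at most 500 bp from the start of a protein-coding transcript), UTR at the 5' end, coding exon, UTR at the 3' end, intron, otherwise intergenic. Replicate support was an overlap of at least 50% of both peaks among the 10160 strongest, or a summit within 100 bp. Coordinates are 1-based. No test was made: there was 1 group, so comparisons are descriptions beside all genes or all peaks. Counting, matching and motif search were tested on simulated data and against bedtools. Python 3.11.15, numpy 2.4.6 and pandas 2.3.3 were used. The members and lists were chosen with earlier results of these data known. The genes named were the 7 members, genes with a start nearest a summit, and up to 4 genes per list by strongest peak; genes without a summit, boi, rdx, Pka-C1, CkIalpha, wg and dpp were named after their values were seen. The symbol smt3 was read as Sumo, and all 66 listed genes matched. Alternatives changed the flank, the start site window, the overlap rule and how many peaks were kept, and left out each replicate.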

Additional observations from a re-analysis of the deposited data

How the results depend on the processing

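The 13 IDR summits were 7 with 1 kb flanks, 17 with 10 kb flanks and 5 among the 5080 strongest peaks. They were 8 to 9 when a replicate was left out. The 7 matched in all 3 replicates were 2 with 1 kb flanks, 11 with 10 kb flanks and 13 against the replicates' whole lists, and 8 to 9 were matched in both remaining replicates. The 4 genes with a summit were 3 with 1 kb flanks, 5 with 10 kb flanks and 2, ptc and smo, among the 5080 strongest peaks. They were 3 to 4 when a replicate was left out. The ptc promoter, the 1 called, was 0 with a 250 bp start site window and 0 among the 5080 strongest peaks, and 0 to 1 when a replicate was left out. Lower-ranked summits were 50 with 10 kb flanks, against 31. Of the other genes, 39 to 40 had a summit when a replicate was left out. Leaving out a replicate keeps only peaks matched in both remaining replicates, so the counts can fall by construction. At hh and inv, 0 and 1 summits were left without replicate 1 and without replicate 3. No paired analysis was possible because the labels give a single group. Read depth is unknown, and weak peaks near rank 10160 fall on either side of that limit between lists.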

Other observations

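On chromosome 4, which holds ci, the IDR list had 9 summits and the pooled list 19. Of the 41 summits that the strongest lists of the 3 replicates held in the 7 windows, 6 had no pooled summit within 100 bp. Over all strongest peaks, 8.7%, 4.81% and 5.86% lacked one in replicates 1, 2 and 3. The 6 were the 3 of replicate 3 at ci and 1 each of replicate 1 at hh, inv and the smo flank. The peak at inv overlapped the IDR peak of rank 9912 by at least 50% of both peaks.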
